A study of Mus musculus with 16 samples.

Results

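The genes described here encode the classical splicing factors of the mouse testis: the SR proteins (*Srsf* genes), the heterogeneous nuclear ribonucleoproteins (hnRNPs, *Hnrnp* genes) and the subunits of splicing factor 3 (*Sf3a* and *Sf3b* genes). They were chosen by symbol alone, as every row named *Srsf* with a number, *Hnrnp* with letters and any number, or *Sf3a* or *Sf3b* with 1 digit. This gave 40 of the 30451 genes in the table, namely 11 SR, 20 hnRNP and 9 SF3 genes. No expression value entered the choice, although the families and cell types were picked with earlier results of these data in view.

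The data are single-cell counts from whole testes of mice at postnatal day 2, in which *Ddx5*, an RNA helicase gene, had been targeted in germ cells. Wild type animals were set against a *Ddx5* conditional knockout, made by crossing *Ddx5* flox/flox mice with *Mvh*-Cre mice, where the *Mvh* promoter drives Cre in germ cells. Homozygous animals came from *Ddx5*+/- fathers and flox/flox mothers, and whether their somatic cells carried a disrupted allele was not tested. An *Oct4*-GFP reporter labelled germ cells, and the rows GFP and CRE count the transcripts of both transgenes. The sample labels number 8 libraries per genotype, but the barcodes carry only 2 suffixes, so that each genotype was treated as 1 library, with no test between genotypes. The labels also name lanes, 1 shared by both genotypes and 1 particular to each, so that lane and genotype are partly confounded. The study's methods name both wild type and *Ddx5*+/- males as controls in general, and the labels of these samples say wild type.

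Pre-mRNA splicing is carried out by the spliceosome, whose small nuclear ribonucleoproteins recognise the ends of each intron. SF3A and SF3B belong to the U2 particle and hold it at the branch site, SR proteins bind mainly exonic enhancers and recruit the machinery, and hnRNPs coat nascent RNA and often repress or shift the choice of splice site. The testis is known for a large repertoire of alternatively spliced transcripts, which makes the balance of these regulators in germ and supporting cells of interest.

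Promoter sequences are shown for *Hnrnpab*, *Hnrnph2* and *Srsf9*, since the contrasts below turn on these genes: *Hnrnpab* and *Hnrnph2* lay at opposite ends of the germ cell comparison between libraries, and *Srsf9* was the member highest in Sertoli cells relative to the other somatic cells. The 150 bases before the RefSeq start (GRCm38.p6) are printed 5′ to 3′ on the strand of the gene, with capitals for matches to CCAAT (the CCAAT box) or GGGCGG (the GC box) on either strand. They lie at chr11:51606882-51607031 (minus strand), chrX:134601029-134601178 (plus strand) and chr5:115327027-115327176 (plus strand), each ending at the base before the transcription start.
Hnrnpab: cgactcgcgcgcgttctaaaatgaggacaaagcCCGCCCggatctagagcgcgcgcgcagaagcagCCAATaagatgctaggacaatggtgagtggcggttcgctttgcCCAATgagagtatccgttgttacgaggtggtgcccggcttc
Hnrnph2: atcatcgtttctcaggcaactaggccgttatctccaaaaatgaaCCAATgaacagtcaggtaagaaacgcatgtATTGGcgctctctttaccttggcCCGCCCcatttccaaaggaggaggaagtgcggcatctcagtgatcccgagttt
Srsf9: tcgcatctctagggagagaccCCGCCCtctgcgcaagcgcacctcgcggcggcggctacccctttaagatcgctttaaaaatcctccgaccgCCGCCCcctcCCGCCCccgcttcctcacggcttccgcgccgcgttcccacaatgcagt
In *Hnrnpab* the CCAAT boxes began 84 and 41 bases before the start and the GC box 117 bases before it. *Hnrnph2* likewise held CCAAT boxes, 106 and 76 bases before the start, and a GC box 53 bases before it. *Srsf9* held no CCAAT in these bases and had 3 GC boxes, all on the opposite strand,, 129, 58 and 48 bases before the start.

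Among the 40 members, 36 had at least 1 promoter in the RefSeq table, and 5 motifs were searched on both strands in the 250 bases before each start. The families held the motifs in different proportions, which were not tested and rest on 7 genes for SF3. CCAAT lay in 13 of 18 hnRNP genes with a promoter, but in 2 of 7 SF3 genes and 3 of 11 SR genes, against 37.5% of all genes with a promoter. CCGGAAG, the core bound by ETS factors, lay in 6 of 7 SF3 genes (all but *Sf3b1*), in 4 of 11 SR genes and in 2 of 18 hnRNP genes, against 7.83% of all genes. GGGCGG lay in 28 of the 36 members and in 35.4% of all genes. The median GC content of the member promoters was 64%, against 52.4% for all promoters, which bears on every GC-rich motif. The NRF1 palindrome lay in 1 member (*Srsf11*) and 0.877% of all genes, and AAGATGGC, the YY1 core, in 1 member (*Hnrnpul1*) and 1.83% of all genes. The motifs as printed do not contain one another. Such matches describe letters only and were not tested as binding sites.

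Barcodes were kept where they held 2000 or more genes and no more than 10% of their UMIs were mitochondrial, which left 6329 in wild type and 4950 in the second library, at median depths of 11170 and 11668.5 UMIs. A UMI, or unique molecular identifier, counts 1 captured mRNA. Cells were classed by a few transcripts: germ cells by at least 3 of *Dazl*, *Ddx4*, *Mael* and *Stk31*, Sertoli cells, the nurse cells of the tubule, by *Amh*, Leydig cells, the androgen producers, by *Cyp11a1*, *Cyp17a1* and *Hsd3b1*, peritubular myoid cells by *Acta2* and *Myh11*, and the remaining stroma by *Pdgfra*. The wild type library gave 83 germ, 2174 Sertoli, 166 Leydig, 723 myoid and 2859 stroma cells, and the other library gave 12, 1602, 129, 501 and 2496. In wild type, markers that the rules did not use followed the classes. *Cst9* stood at 1195 CPM (counts per 1000000 UMIs of the class) in wild type Sertoli cells and 24.6 in germ cells, *Insl3* at 1308 in Leydig cells and at most 2.93 in the other 4 classes, and *Sycp3* at 143 in germ cells and at most 1.13 elsewhere. The myoid class was the least separate: it held 288 CPM of *Pdgfra*, and only 54 of its 723 wild type cells met no other rule. Macrophage markers summed to 91.1 CPM in wild type germ cells and 6.48 in those of the other library. Summed erythroid markers ranged from 4.05 to 133 CPM in the 4 somatic classes of wild type and from 288 to 1475 CPM in those of the other library. A total of 12 barcode sequences occurred in both libraries. The part of these markers in the results below was not tested.

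*Ddx5* itself went against the label. It stood at 1226 CPM in wild type germ cells (95% counting interval 1184 to 1269) and at 1736 CPM (1618 to 1860) in germ cells of the other library, although all 20 CRE UMIs lay in these 12 cells and none in wild type. Whether the 3′ reads lie in the deleted part was not tested. In sorted *Oct4*-GFP-positive germ cells of the same age, the study reported strongly decreased *Ddx5* mRNA by single-cell qRT-PCR. In the 4 somatic classes *Ddx5* stood between 610.1 and 933 CPM in wild type and between 551 and 887 CPM in the other library, lower there in each class, with ratios from 0.875 to 0.950. The second library is therefore called the library labelled *Ddx5* knockout.

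The members together made up 1.37% of all UMIs in wild type Sertoli cells, 1.19% in myoid cells, 1.17% in germ cells, 1.04% in stroma and 0.746% in Leydig cells. In the library labelled *Ddx5* knockout the order of the somatic cells was the same, with 1.35%, 1.17%, 0.993% and 0.736%, while germ cells stood at 0.937%. Ribosomal protein genes took 34.1% of UMIs in these germ cells and 16.0% in wild type ones. Leaving ribosomal and mitochondrial genes out of the total raised log2 ratios between the libraries in germ cells by 0.30. The hnRNP genes supplied most of the members' share, from 0.421% of UMIs in Leydig cells of the knockout label to 0.838% in wild type Sertoli cells. SF3 genes were the only family whose share was higher in germ cells than in each somatic class in both libraries (0.186% and 0.172%, against at most 0.153%), a description without a test. In the library labelled *Ddx5* knockout this rested on *Sf3b1*: without it the other 8 genes took 0.10% of UMIs in germ cells, against 0.119% in Sertoli, 0.106% in myoid and 0.105% in stroma cells.

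Levels spanned more than 2 orders of magnitude, and because the kit reads 1 tag near each 3′ end, counts do not scale with transcript length. The highest members by mean CPM over the 8 somatic sums were *Hnrnpa1* (744 CPM), *Hnrnpa2b1* (665 CPM) and *Hnrnpk* (616 CPM), all abundant nuclear RNA-binding proteins, and the first of them shares near-identical sequence with pseudogenes that are also rows of the table, so its count is uncertain to that extent. The lowest were *Srsf12* (3.30 CPM), an SR protein that opposes other SR proteins, *Srsf4* (45.5 CPM) and *Sf3a1* (50.5 CPM). *Sf3b3*, a scaffold subunit of SF3B, was the evenest, with a highest over lowest somatic level of 1.13, and *Srsf12* the most uneven, with 10.1 (both picked here after their values were seen). The same type was highest and the same type lowest in both libraries for 34 of 40 members. Sertoli cells were highest of the somatic types in both libraries for 26 members, and Leydig cells lowest for 33. The shares of all genes with these patterns, and with the same order in both libraries, were not counted, so the counts describe the members only.

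**Figure D1:**
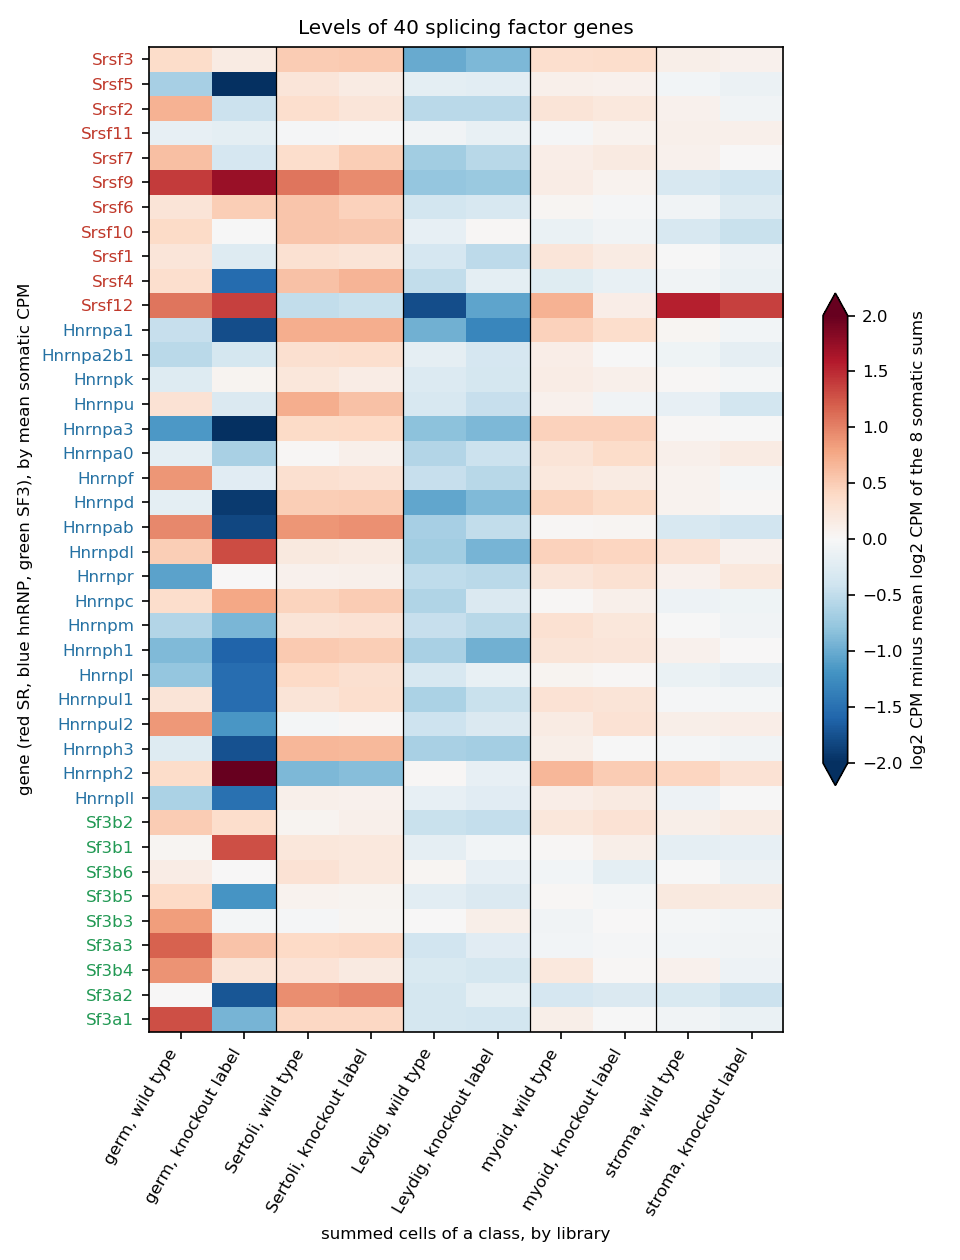
Heat map of log2 CPM of the 40 members in the 5 cell classes of each library, each row centred on the mean of its 8 somatic sums (color scale in log2 units, cut at -2 and 2). The paired somatic columns look alike, Leydig columns are mostly blue, and the widest contrast between libraries lies in the germ columns, where *Hnrnph2* is red and *Hnrnpab* blue under the knockout label.

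To ask which somatic cells differed, UMI sums of the 4 types in both libraries (8 sums, n = 2 per type) were fitted with edgeR's quasi-likelihood test, each type against the mean of the other 3. A gene was called at a Benjamini-Hochberg adjusted p below 0.05 over all 16809 genes tested and a log2 fold of at least 0.5. All 40 members passed the filter on low counts. With library as a term, the p-values measure how far the differences between types varied between the 2 libraries, on 3 residual degrees of freedom. The libraries carry different labels, so that this spread may be technical or biological.

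Sertoli cells carried more of many splicing factors. Of 40 members 17 were called higher (42.5%) and 1 lower, against 25.1% and 24.1% of all genes tested, and the median log2 fold was 0.40 for members and 0.02 for all genes. By family, 6 of 11 SR, 8 of 20 hnRNP and 3 of 9 SF3 genes rose. *Srsf9*, an SR protein that binds exonic enhancers, stood at 510 and 470 CPM in Sertoli cells of the wild type and knockout-labelled libraries, against 143 and 145 in Leydig cells, 269 and 256 in myoid cells and 195 and 186 in stroma. Sertoli values therefore did not overlap with any other somatic value, and the log2 fold was 1.34 (SE 0.0389, adjusted p = 3.69e-13 by edgeR's quasi-likelihood test). *Sf3a2*, a subunit of SF3A, stood at 94.6 and 97.4 CPM in Sertoli cells and between 36.7 and 43.1 in the other 6 sums. Its log2 fold was 1.28 (SE 0.0584, adjusted p = 6.61e-11, edgeR). *Hnrnpab*, an hnRNP that binds AU-rich RNA, stood at 656 and 675 CPM in Sertoli cells, above its range of 227 to 366 CPM elsewhere, with a log2 fold of 1.19 (SE 0.0421, adjusted p = 3.38e-12, edgeR). *Hnrnpa1*, a repressor of many exons, reached 1112 and 1106 CPM, with a log2 fold of 0.97 (SE 0.0473). *Hnrnph3* of the hnRNP H and F family stood at 136 CPM in both libraries and at 54.0 to 93.7 elsewhere, a log2 fold of 0.88 (SE 0.0484).

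One member went the other way. *Hnrnph2*, the X-linked relative of *Hnrnph1*, stood at 35.9 and 36.9 CPM in Sertoli cells but at 68.0 and 59.6 in Leydig cells, 106 and 95.1 in myoid cells and 90.0 and 81.8 in stroma, with a log2 fold of -1.17 (SE 0.0621, adjusted p = 3.54e-10, edgeR). Its paralogs *Hnrnph1* and *Hnrnph3* rose in the same cells, with log2 folds of 0.68 (SE 0.0483) and 0.88. Of the 17 genes called higher, 16 had a log2 fold of at least 0.5 in each library taken alone.

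Leydig cells showed the mirror image. None of the 40 members was called higher and 21 were called lower (52.5%), against 21.9% and 24% of all genes. Folds were below 0 for 39 of 40 members and for 9242 of 16809 genes. At an unadjusted p below 0.05, 36 members passed in either direction, as did 60.4% of all genes. DESeq2 also called 0 higher, with 20 lower, against 22.6% and 21% of all genes. The median log2 fold was -0.54 for members and -0.12 for all genes. The hnRNP genes led with 14 of 20, while 6 of 11 SR genes and 1 of 9 SF3 genes (*Sf3b2*) were lower. *Hnrnpa1* stood at 344 and 272 CPM in Leydig cells, below its range of 648 to 1112 CPM elsewhere, and its log2 fold was -1.49 (SE 0.0582, adjusted p = 1.76e-11, edgeR). *Hnrnpd*, also called AUF1, which directs AU-rich mRNAs to decay, stood at 179 and 198 CPM against 371 to 520 elsewhere, a log2 fold of -1.27 (SE 0.0530). *Srsf3*, the smallest SR protein, with roles in splicing and mRNA export, stood at 285 and 308 CPM against 609 to 822 elsewhere, and *Hnrnpa3*, a relative of *Hnrnpa1*, at 262 and 248 against 463 to 640. Their log2 folds were -1.26 (SE 0.0442) and -1.14 (SE 0.0448). In each of these genes no Leydig value overlapped with another somatic value. *Srsf12* had the lowest fold, -1.86 (SE 0.490, adjusted p = 0.00472, edgeR), but rested on 2 and 3 UMIs in Leydig cells. Only 1.2% and 3.1% of Leydig cells were cycling (at least 3 UMIs of *Mki67* and *Top2a*), against 17.3% to 44.3% of the other somatic classes. With every cell that held a UMI of either gene left out, 17 members were still called lower in Leydig cells and 15 higher in Sertoli cells, against 23.9% and 23.5% of the genes in that fit.

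In myoid cells the calls were hnRNP genes alone, with 5 members called higher and 0 lower against 22.1% and 17.1% of all genes, so that the share of members was below that of genes at large. With no limit on the fold, 26 members and 56% of all genes passed edgeR's adjusted p, and DESeq2 with the limit also called 5 and 0, against 20.7% and 15.9% of all genes. *Hnrnph2* led at 106 and 95.1 CPM, with a log2 fold of 0.80 (SE 0.0613, adjusted p = 4.78e-08, edgeR). *Hnrnpa3*, *Hnrnpdl* (a relative of *Hnrnpd*), *Hnrnpd* and *Hnrnpa1* followed with 0.63 (SE 0.0377), 0.60 (SE 0.0478), 0.57 (SE 0.0435) and 0.56 (SE 0.0487). All 5 had a log2 fold of at least 0.5 in each library alone. Myoid and stroma cells share markers in this classing, and when cells meeting any 2 rules were left out, 54 and 25 myoid cells remained, with 2 members called higher and 1 lower by the same edgeR test, against 9.15% and 10.6% of the genes in that fit.

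Stroma differed least. *Srsf12* was the member called higher, and *Srsf10*, *Sf3a2* and *Srsf9* were called lower, against 23.9% and 14.8% of all genes. *Srsf12* stood at 7.43 and 6.53 CPM (218 and 170 UMIs) in stroma and at 0.736 to 4.07 elsewhere, a log2 fold of 1.91 (SE 0.195, adjusted p = 8.97e-07, edgeR). *Srsf10*, an SR protein that turns into a splicing repressor when dephosphorylated, stood at 162 and 149 CPM against 182 to 299 elsewhere, with a log2 fold of -0.54 (SE 0.0527). *Sf3a2* and *Srsf9* lay at the threshold, both at -0.50 (SE 0.0652 and 0.0427). None of the 3 lower calls reached 0.5 in both libraries alone, and without the knockout-labelled library none did.

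Over the 4 contrasts, 11 of 40 members, against 8.56% of all genes, were both higher in Sertoli and lower in Leydig cells: *Hnrnpa1*, *Hnrnpa3*, *Hnrnpab*, *Hnrnpc*, *Hnrnpd*, *Hnrnph1*, *Hnrnph3*, *Hnrnpu*, *Srsf3*, *Srsf7* and *Srsf9*. Of these, *Hnrnpa1*, *Hnrnpa3* and *Hnrnpd* were also higher in myoid cells. A further 12 members were called in no somatic contrast, a share near the 25.4% of all genes, and 5 of these were SF3B subunits (*Sf3b1*, *Sf3b3*, *Sf3b4*, *Sf3b5* and *Sf3b6*). The 4 contrasts share their sums and are not independent of each other.

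**Figure D2:**
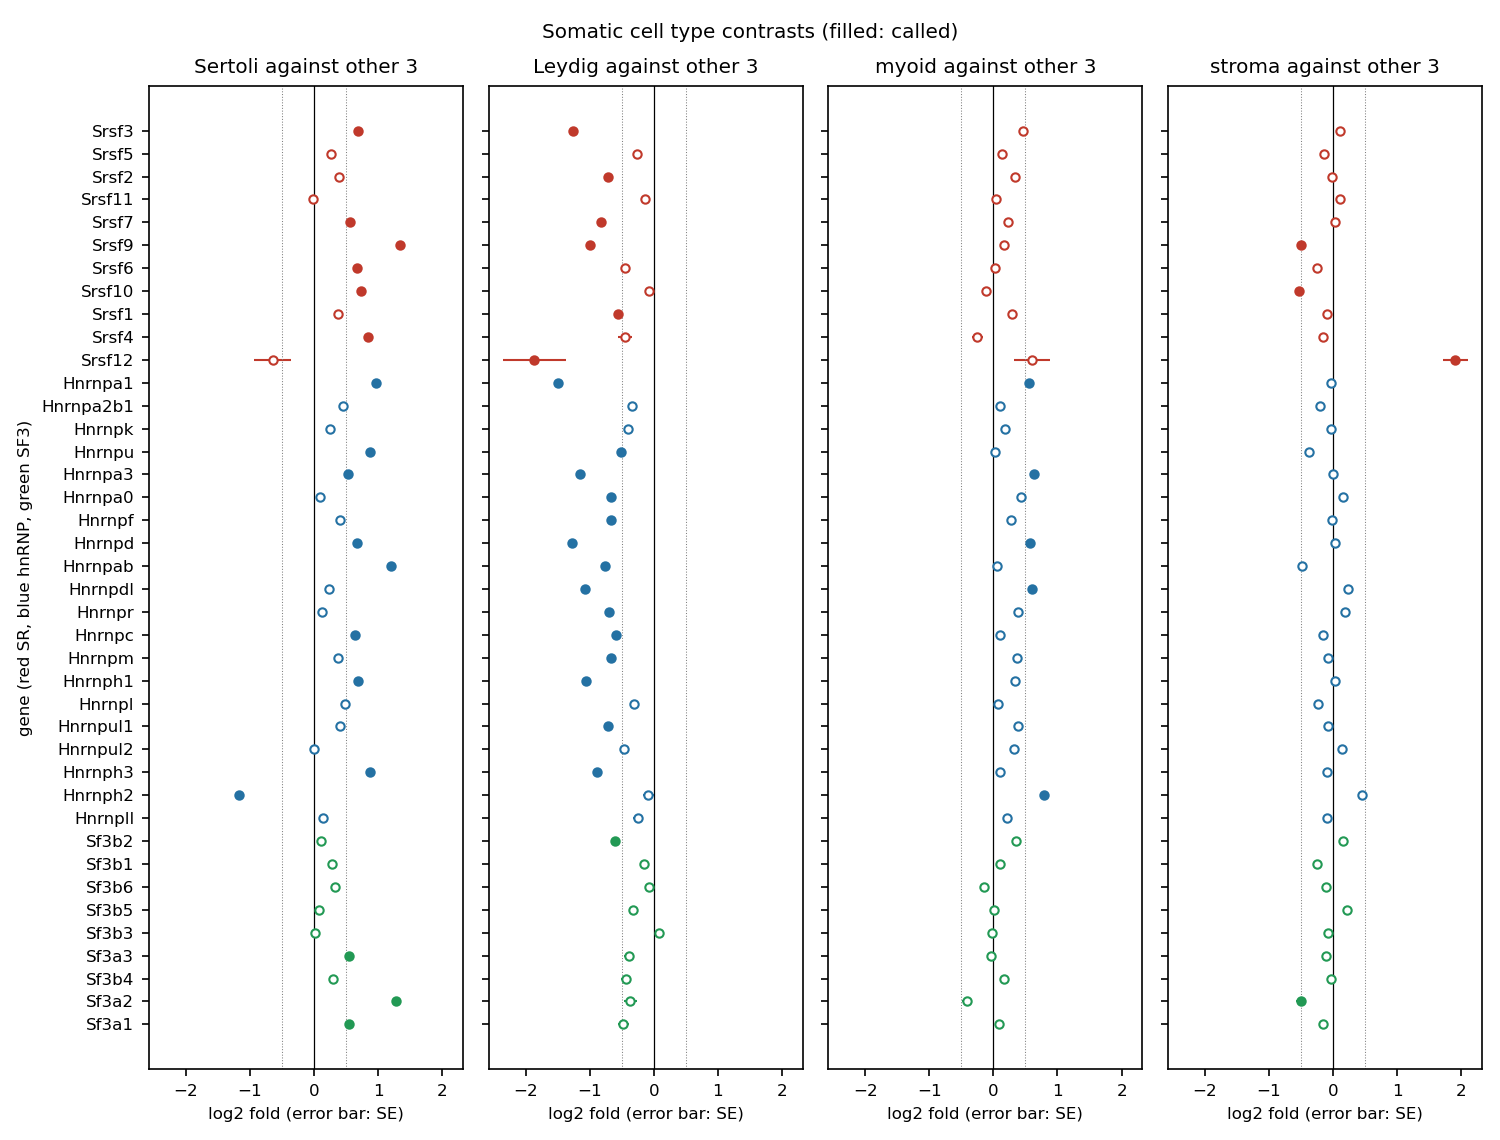
Log2 fold of each member in 1 somatic type against the mean of the other 3 (x axis; error bar, SE; n = 2 sums per type), with filled points for called genes and dotted lines at -0.5 and 0.5. Most points lie right of 0 in Sertoli cells and left of 0 in Leydig cells, with *Hnrnph2* the filled exception at -1.17 in Sertoli cells.

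Sertoli cells and stroma held enough dividing cells to ask whether splicing factors moved with the cell cycle. Cycling cells (at least 3 UMIs of *Mki67* and *Top2a*) were set against cells with 0 UMIs of both, in 8 sums over 2 libraries. With library and type as terms, the spread behind the p-values of this fit also held any difference of the state effect between types. Of 40 members 7 were called higher and 1 lower among 15937 genes tested, against 7.78% and 6.71% of all genes, and the median log2 fold was 0.23 for members and -0.08 for all genes. The hnRNP genes supplied 5 of the 7 and SR genes 2, and no SF3 gene passed both limits (4 passed the adjusted p). *Hnrnpul2*, an hnRNP U-like protein, stood at 114 and 116 CPM in cycling and 73.3 and 78.6 in non-cycling Sertoli cells, and at 148 and 152 against 88.5 and 90.5 in stroma, with a log2 fold of 0.60 (SE 0.0508, adjusted p = 3.11e-05, edgeR). *Hnrnpa2b1*, which also sorts and marks RNAs for transport, rose from 664 and 651 to 954 and 958 CPM in Sertoli cells and from 526 and 481 to 848 and 838 in stroma. Its log2 fold was 0.57 (SE 0.0467, adjusted p = 2.48e-05, edgeR). *Srsf2* (SC35), an SR protein of nuclear speckles, reached the same fold of 0.57 (SE 0.0646). Values did not overlap between states of a type in any of the 3 genes. *Hnrnpa3* (0.52, SE 0.0687) and *Srsf4* (0.51, SE 0.0778) lay just past the limit, as did the other 2 hnRNP genes called. *Srsf12* was lower in cycling cells, with a log2 fold of -0.63 (SE 0.167, adjusted p = 0.0201, edgeR) and a highest level of 5.69 CPM in cycling cells. Its fold was -0.62 in wild type alone and -0.34 in the other library alone, and DESeq2 did not call it (adjusted p = 0.0569). Cycling cells were deeper, with medians of 18161 and 20158 UMIs in Sertoli cells against 11722.5 and 13393 in non-cycling ones. With cycling set at 1 UMI in place of 3, no member was called higher, while 6.49% of all genes were. The part of depth and of the cut in these folds was not tested.

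Some members moved unequally in the 2 cell types. The interaction of state and type had an edgeR adjusted p below 0.05 for 7 members, against 13.1% of all genes. They included *Srsf2*, *Hnrnpa3* and *Hnrnpd* of the 7 called higher, whereas for *Hnrnpul2* and *Hnrnpa2b1* the fold in stroma was 0.04 and 0.10 larger on the log2 scale (adjusted p = 0.769 and 0.289, edgeR). Of the 7, *Hnrnpab* differed most. It stood at 687 and 726 CPM in cycling and 615 and 595 in non-cycling Sertoli cells, but at 414 and 407 against 234 and 228 in stroma, so that its log2 fold was 0.50 larger in stroma (SE 0.0614, adjusted p = 0.000106, edgeR). Fitted in each type alone, 14 members were called higher in cycling stroma and 2 in cycling Sertoli cells, against 13.3% and 7.61% of all genes, in fits that each left 1 residual degree of freedom.

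**Figure D3:**
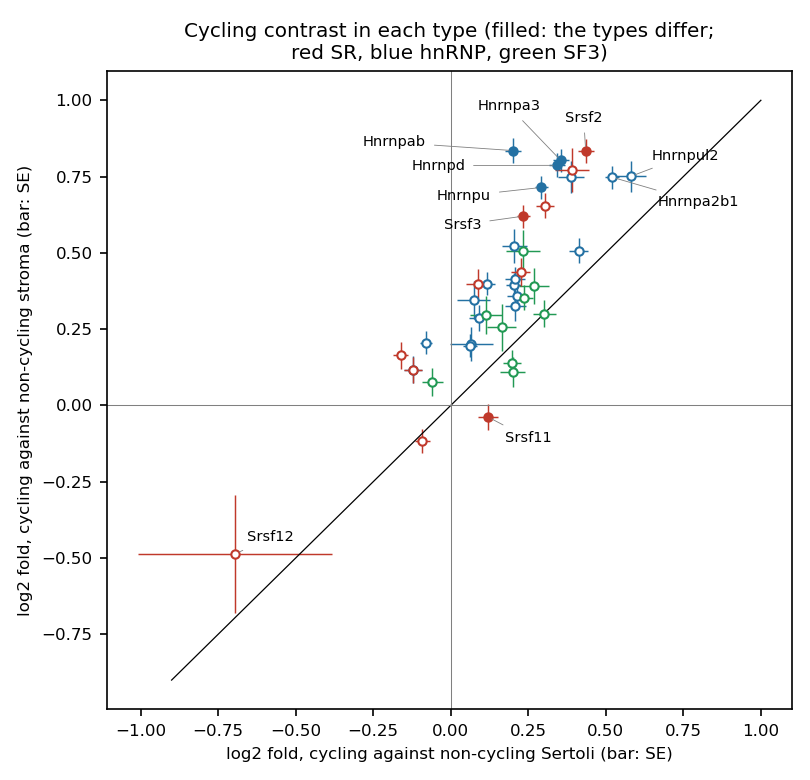
Log2 fold of each member between cycling and non-cycling cells in Sertoli cells (x axis) and stroma (y axis), with SE bars, the line of equality, and filled points where the adjusted p of the interaction was below 0.05. Most points lie above the line, *Hnrnpab* farthest of the filled ones, and *Srsf11* is the filled point below it.

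Germ cells were compared with the mean of the 4 somatic types within a library. There is 1 germ sum per library, so these ratios have 95% counting intervals and no test. In wild type germ cells 3 members of 40 were at least 2-fold higher than the somatic mean and 2 at least 2-fold lower, against 25.2% and 27.3% of 15650 genes. The families leaned apart: the median log2 ratio was 0.50 for SF3, 0.33 for SR and -0.30 for hnRNP genes, with 0.10 for all genes.

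*Sf3a1*, a subunit of SF3A, stood at 121 CPM in wild type germ cells and 51.5 in the somatic mean, a ratio of 2.34 (2.07 to 2.64). *Srsf9* stood at 645 against 279 CPM, a ratio of 2.31 (2.19 to 2.43), and *Sf3a3*, the remaining SF3A subunit with *Sf3a2*, at 174 against 77.2 CPM, a ratio of 2.26 (2.04 to 2.49). Just short of the limit lay *Hnrnpul2* with 1.86 (1.68 to 2.05), *Hnrnpab* with 1.82 (1.73 to 1.91) and *Sf3b3* with 1.82 (1.67 to 1.98). At the other end, *Hnrnpa3* stood at 209 against 495 CPM, a ratio of 0.421 (0.386 to 0.459), and *Hnrnpr*, an hnRNP of the nucleus and of axons, at 114 against 241, a ratio of 0.473 (0.421 to 0.531). *Hnrnph1* (0.502), *Hnrnpl* (0.575), *Srsf5* (0.615) and *Hnrnpa1* (0.635) came next. With every wild type cell that met the germ rule, 39 of which also met the Sertoli rule, no member was 2-fold lower, against 22.2% of all genes, an alternative chosen after seeing the data.

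Relative to each somatic class rather than the mean, wild type germ cells lay above all 4 classes for 13 members and below all 4 for 9, against 37.1% and 25.3% of all genes. In the library labelled *Ddx5* knockout they lay above for 9 and below for 19, against 27.6% and 42.5%. Of these, 5 and 8 were shared with wild type, an overlap that was not counted over all genes. In that library 5 members were at least 2-fold above and 14 at least 2-fold below the somatic mean, where 21.2% and 44.7% of all genes were. One of the 5, *Srsf12*, rested on 3 UMIs (ratio 2.10, 0.426 to 6.27). *Srsf9* kept a ratio of 3.05 (2.75 to 3.39), whereas *Sf3a1* stood at 0.522 (0.269 to 0.915).

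The germ cells of the libraries were then set against each other, 83 wild type cells with 2646009 UMIs and 12 cells of the knockout label with 463254 UMIs. With 39 members of at least 50 UMIs, 4 were at least 1.5-fold higher and 21 at least 1.5-fold lower in the library labelled *Ddx5* knockout. The shares of all 7576 genes counted the same way were 11.9% and 56.9%, so that the shares of members lay near those of genes at large, with a median log2 ratio of -0.63 against -0.78 for all genes. Ribosomal protein genes took 34.1% of UMIs in these 12 cells and 16.0% in wild type germ cells. With ribosomal and mitochondrial genes left out of the total, the medians moved up by 0.30, and 7 members were higher and 15 lower, against 17.7% and 47.4% of all genes under that scaling. Cycling cells were 65.1% of the wild type germ cells and 50% of the others, and the part of either in the ratios was not tested.

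The members spread widely around that shift. *Hnrnph2* was found in each of the 12 cells, with a lowest, median and highest level of 150, 348 and 537 CPM, against 0, 75.9 and 336 CPM in wild type. All 12 cells lay above the wild type median, and the ratio of sums was 3.94 (3.20 to 4.85). *Sf3b1*, the SF3B subunit that contacts the branch site, ranged from 315 over a median of 704 to 1065 CPM, against 89.8, 285 and 1084 CPM, again with all 12 above the wild type median and a ratio of 2.37 (2.08 to 2.69). *Hnrnpr* followed with a median of 241 against 113 CPM and a ratio of 2.12 (1.69 to 2.64). *Hnrnpdl* had a ratio of 1.75 (1.53 to 1.99), which was 1.48 without the cell with most of its UMIs.

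*Hnrnpab* lay farthest in the other direction. Its lowest, median and highest levels were 41.3, 94.3 and 237 CPM in the 12 cells and 0, 689 and 1290 CPM in wild type, and all 12 lay below the wild type median, with a ratio of 0.145 (0.106 to 0.194). *Sf3a1* was found in 6 of 12 cells and in 77 of 83 wild type cells, at a ratio of 0.215 (0.110 to 0.381), or 0.143 without the cell with most of its UMIs. *Hnrnpul2* had a UMI in 6 of 12 and 76 of 83 cells and a ratio of 0.244 (0.148 to 0.381), or 0.161 without 1 cell. *Srsf4* had a ratio of 0.272 (0.107 to 0.575) and *Hnrnpul1* of 0.290 (0.164 to 0.479). Under the knockout label these ratios rested on 12 UMIs for *Sf3a1*, 20 for *Hnrnpul2*, 7 for *Srsf4* and 16 for *Hnrnpul1*. Of the 21 lower members, 20 had an interval wholly below 1. By family the lower members were 11 of 20 hnRNP, 6 of 9 SF3 and 4 of 10 SR genes, and the higher ones 3 hnRNP genes and *Sf3b1*.

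**Figure D4:**
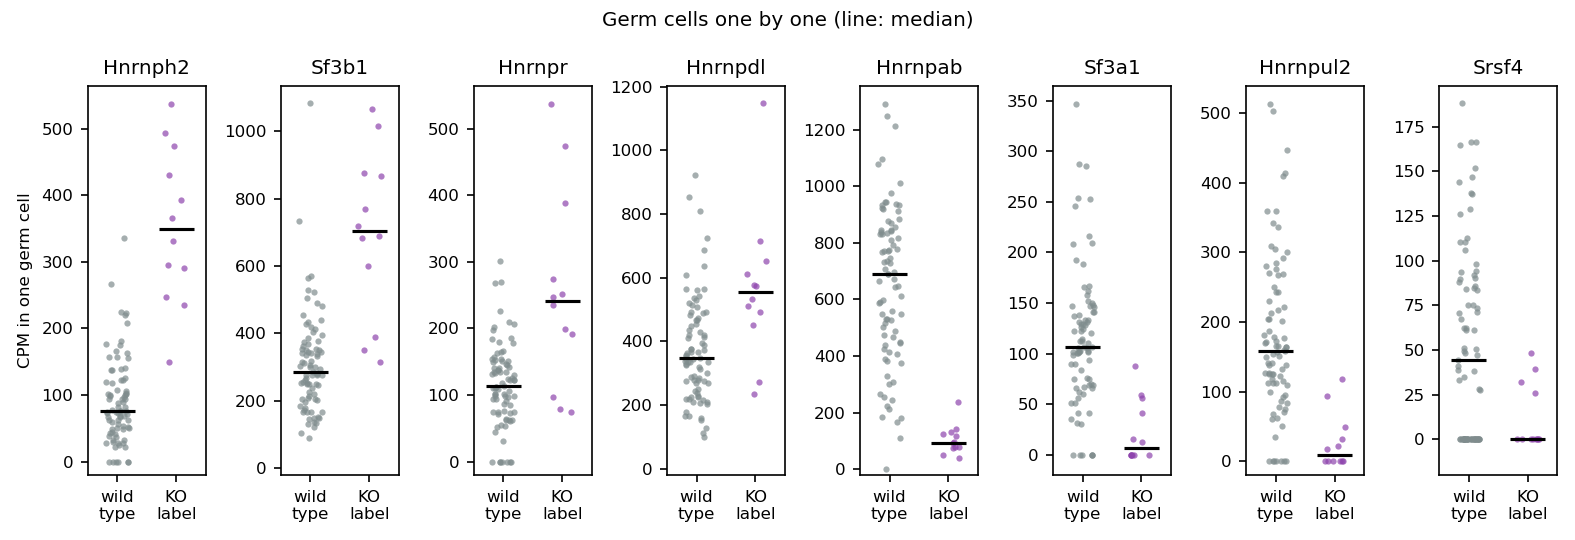
CPM of 8 members in single germ cells (each point 1 cell, 83 wild type and 12 with the knockout label, line at the median), each gene on its own linear axis. *Hnrnph2*, *Sf3b1*, *Hnrnpr* and *Hnrnpdl* sit higher under the knockout label, and *Hnrnpab*, *Sf3a1*, *Hnrnpul2* and *Srsf4* sit lower, with the *Hnrnpab* points between 41.3 and 237 CPM.

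The somatic classes gave no such contrast between the libraries. No counted member reached 1.5-fold between the libraries in any of the 4 somatic classes (0 higher and 0 lower), where 3.39% of all genes were higher and 2.32% lower in Sertoli cells, 2.58% and 3.03% in Leydig cells, 1.84% and 2.32% in myoid cells and 2.47% and 2.03% in stroma. The 40 ratios ran from 0.912 (*Hnrnpu*) to 1.10 (*Srsf7*) in Sertoli cells and from 0.865 (*Hnrnpdl*) to 1.09 (*Hnrnpr*) in stroma. In myoid cells they ran from 0.681 (*Srsf12*, 36 and 18 UMIs) to 1.09 (*Hnrnpul2*), and in Leydig cells the 39 counted ratios ran from 0.789 (*Hnrnpa1*, 0.714 to 0.872) to 1.23. *Hnrnpab*, 6.88-fold lower in germ cells, stood at 675 against 656 CPM in Sertoli cells, and *Hnrnph2* at 36.9 against 35.9 CPM.

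**Figure D5:**
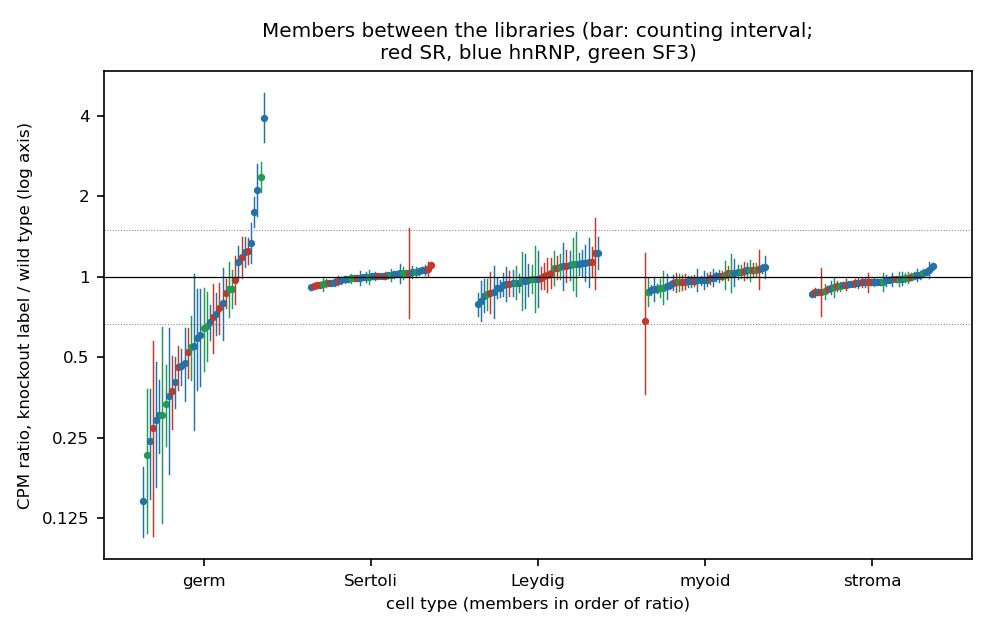
Ratio of CPM, library labelled *Ddx5* knockout over wild type, for each member with at least 50 UMIs in 5 cell types (log axis; bars, 95% counting intervals; dotted lines at 1.5-fold). Germ ratios run from 0.145 to 3.94, and the somatic ratios all lie inside the dotted lines.

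The rest of the splicing machinery was read from lists of 65 other genes. In Sertoli cells 3 of 8 Sm core genes, 3 of 10 U1 and U2 snRNP genes and 2 of 10 tri-snRNP and PRP19 genes were called higher and none lower, where 25.1% of all genes were called higher, so that the shares lay on either side of the background. *Snrpn*, an imprinted Sm gene, had a log2 fold of 0.97, *Snrpd1*, an Sm ring protein, a log2 fold of 0.77 and *Snrpa1*, a U2 protein, of 0.72. In Leydig cells the counts of lower genes in these lists were 3, 5 and 4, against 24% of all genes, with *Snrpd1* at -0.85 and *Snrpa1* at -0.96 (all adjusted p by edgeR's quasi-likelihood test), and *Prpf19*, a ubiquitin ligase of the spliceosome, was higher at 0.76. In cycling cells 1 of 8, 1 of 10 and 2 of 10 genes of these lists were called higher, against 7.78% of all genes. These were *Snrpd1* (0.64), *Snrpa1* (0.57), *Prpf4* (0.62) and *Prpf3* (0.53). In wild type germ cells 6 of 10 tri-snRNP and PRP19 genes were at least 2-fold above the somatic mean and none below, against 25.2% and 27.3% of all genes, led by *Prpf3* with 61.6 against 17.4 CPM, and *Snrpf* and *Snrpe* of the Sm core had ratios of 3.09 and 2.30. Between the germ cells of the libraries, *Prpf3* stood at 212 against 61.6 CPM under the knockout label, a ratio of 3.43 (2.65 to 4.44), while *Snrpd3* stood at 64.8 against 290, a ratio of 0.223 (0.150 to 0.322). Of 12 SR kinase and SR-like genes, 1 was called higher and 1 lower in Sertoli cells and 0 and 1 in Leydig cells, against 25.1% and 24.1%, and 21.9% and 24%, of all genes. Between germ cells of the libraries, 2 of the 11 counted genes of that list were 1.5-fold higher and 4 lower, against 11.9% and 56.9% of all genes. The 4 lower genes were all kinases of SR proteins, with *Srpk2* at 0.270 (0.168 to 0.414), *Srpk1* at 0.300 (0.205 to 0.426), *Clk2* at 0.420 (0.132 to 1.03) and *Clk3* at 0.571 (0.296 to 1.01). Other counted kinases of the list were not lower: *Clk1* stood at 1.77 (1.09 to 2.77) on 84 and 26 UMIs. *Clk4* stood at 28.1 CPM under the knockout label and 26.1 CPM in wild type. *Srrm2*, a large scaffold of nuclear speckles, stood at 680 CPM in wild type and 2433 CPM under the knockout label, a ratio of 3.58 (3.32 to 3.85), and each of the 12 cells lay above the wild type median.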

How the data were processed

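Testis cells of mice at postnatal day 2 were captured with a 3′ droplet kit. Per the labels and methods, the authors ran Cell Ranger 3.1.0 on GRCm38 with GFP and CRE added, and they deposited 1 table of raw UMI counts for both genotypes, without normalization. No file pairs a barcode suffix with a genotype: suffix 3 was taken as wild type and 4 as knockout from the cell numbers that the study states after its filter. Gene positions are from GENCODE vM21 and promoters from RefSeq, both on GRCm38.

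Members, lists and cell rules were chosen with earlier results of these data known. Cells meeting exactly 1 of the germ, Sertoli, Leydig and myoid rules took that class, and stroma met none of them. UMIs were summed per class and library and tested with edgeR 4.0.16 (R 4.3.3; TMM, filterByExpr, quasi-likelihood F test, library as a term), with Benjamini-Hochberg adjustment. SE is the log2 fold over the root of F. Ratios have exact conditional binomial intervals and levels exact Poisson intervals, both at 95% and covering counting error only. Doublets (284 and 296 cells by Scrublet in scanpy 1.11.5) were kept. The fits and intervals were tested on simulated data. DESeq2 1.42.0, other scaling, filters and cell rules were alternatives. Of the members, 9 overlap another gene on their strand, among them *Hnrnpa3*, *Sf3a3*, *Sf3b3*, *Srsf4* and *Hnrnpul2*, and reads there could be shared. Called members were named by absolute log2 fold, at most 5 per direction and contrast, others by ratio, at most 6 in germ against somatic cells and 5 between libraries. Other splicing genes were named by the same order, at most 3 per list and comparison.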

Additional observations from a re-analysis of the deposited data

Results flagged for a closer look

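The effect of cycling differed between stroma and Sertoli cells for 7 members, by the interaction term of state and cell type (edgeR's quasi-likelihood test, adjusted over 15937 genes), against 13.1% of all genes. The log2 difference, stroma minus Sertoli, was 0.50 for *Hnrnpab* (adjusted p = 0.000106), 0.32 for *Hnrnpa3* (0.00305), 0.31 for *Hnrnpd* (0.00305), 0.30 for *Hnrnpu* (0.00276), 0.27 for *Srsf2* (0.0117), 0.26 for *Srsf3* (0.00506) and -0.28 for *Srsf11* (0.00977). The median of all genes in this term was -0.12. Of the 7, only *Hnrnpab* also passed the limit of 0.5 on the log2 scale. Stroma and Sertoli cells differed in the share of cycling cells, 17.3% to 19.2% against 38.7% to 44.3%, and its part in these differences was not tested.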

How the results depend on the processing

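No paired analysis was possible because the columns of the table carry no replicate numbers, so that neither animals nor genotypes could be paired. This does not concern cell types and cycling states, which were compared within library, with library as a term. No called fold and no ratio past its limit changed direction under the alternatives run. Of the ratios between libraries short of 1.5-fold, 4 in germ cells (*Srsf11*, *Srsf3*, *Sf3b2* and *Sf3b6*) went from below to above 1 with CPM outside ribosomal and mitochondrial genes. Of the log2 folds of called members, 397 values under alternatives stayed past both limits and 35 kept their direction but not the call. Of the ratios, 228 germ against somatic values stayed within the counting interval and 12 moved, as did 821 and 19 between libraries.

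Counts of called members that moved by over 1.5 times were as follows, and the cause was not tested except where the setting itself removes cells. Members lower in Sertoli cells went from 1 to 2 with RLE size factors, without doublets and with every cell counted under each rule it met. Members higher in myoid cells went from 5 to 2 when cells meeting any 2 rules were left out and to 3 with every rule counted, and members lower went from 0 to 1 when cells meeting any 2 rules were left out. In stroma, members higher went from 1 to 2 without doublets, without cells meeting any 2 rules and with every rule counted, while members lower went from 3 to 1 without a count filter, to 0 without cells meeting any 2 rules and to 1 with every rule counted. Cycling at 1 UMI took the 7 members higher to 0, and DESeq2 took the 1 lower to 0. Between libraries, CPM outside ribosomal and mitochondrial genes took the members higher in germ cells from 4 to 7, leaving out doublets took those lower in Sertoli cells from 0 to 1, and a minimum of 3000 genes took those lower in myoid cells from 0 to 1. With every germ-rule cell, members 2-fold lower in wild type germ cells went from 2 to 0.

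With 1 library left out in turn, by fold alone and chosen after seeing the data, members lower in Sertoli cells numbered 2 either way, members lower in stroma ranged from 0 to 3 and members lower in cycling cells from 0 to 1. The germ class of the knockout label is limited by its 12 cells, with 463254 UMIs in all, and genes under 50 UMIs in both libraries together were not counted.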

Other observations

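Splicing factors known for regulated, often tissue-restricted use were described separately from the members. Of 25 such genes, 9 were at least 2-fold above and 6 at least 2-fold below the somatic mean in wild type germ cells, against 25.2% and 27.3% of all genes. *Esrp1*, an epithelial splicing regulator, stood at 115 CPM in wild type germ cells (304 UMIs) and at most at 0.368 CPM in a somatic class, and in germ cells under the knockout label at 15.1 CPM (7 UMIs). *Rbfox3*, an RBFOX protein of neurons, stood at 14.7 and 15.1 CPM in germ cells of the libraries (39 and 7 UMIs) and at most at 2.94 CPM in a somatic class. *Elavl2*, a relative of the neuronal Hu proteins, stood at 145 and 179 CPM in germ cells of the libraries and at 1.76 to 31.1 CPM in somatic classes. Between germ cells of the libraries, 3 of 17 counted genes were 1.5-fold higher under the knockout label and 6 lower, against 11.9% and 56.9% of all genes. *Celf4*, a CELF protein, stood at 69.1 CPM in germ cells under the knockout label and 19.3 CPM in wild type. *Khdrbs1* (Sam68), an RNA-binding signalling protein, stood at 38.9 against 189.7 CPM. *Ptbp2*, a polypyrimidine tract binding protein needed in the germ line, stood at 17.3 against 83.9 CPM. Under the knockout label these 3 genes rested on 32, 18 and 8 UMIs. Of the 23 such genes tested, the counts called higher and lower by edgeR's quasi-likelihood test were 5 and 8 in Sertoli cells, 3 and 10 in Leydig cells, 8 and 1 in myoid cells and 9 and 2 in stroma. The shares over all genes were 25.1% and 24.1%, 21.9% and 24%, 22.1% and 17.1%, and 23.9% and 14.8%, in the same order.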
